A study of Mus musculus with 4 samples.

Results

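The endothelial transcription factors described here are 10 genes, taken by their GENCODE symbols: the ETS factors Erg, Fli1, Ets1 and Ets2, the SOXF factors Sox7, Sox17 and Sox18, the basic helix-loop-helix factor Tal1, and the shear-responsive Krüppel-like factors Klf2 and Klf4. All 10 were found among the 55401 genes counted in each library, and all 10 had enough counts to be tested beside 13533 genes in all. The 4 libraries were made from poly(A) RNA of the semimembranosus, a hamstring muscle, of C57BL/6 mice aged 8 weeks. In every mouse the left external iliac vein had been tied over a 30-gauge needle to narrow it. For the 2 libraries labelled IVS, for iliac vein stenosis, mice had normal saline by daily gavage. For the 2 labelled IVS_diosmin they had 40 mg/kg of diosmin, a flavonoid taken for venous disease, daily by the same route. Both groups thus carry the stenosis, and no group without surgery is among the libraries. Whether the 2 libraries of a group came from separate animals is not stated in the labels, so every p-value reflects the spread between these libraries alone, and that spread may be technical.

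ERG and FLI1 are close relatives that bind GGAA-centred DNA and keep endothelial junction, receptor and Notch ligand genes switched on. ETS1 and ETS2 bind like sites and respond to growth factor signalling. SOX7, SOX17 and SOX18 form the SOXF subgroup, which acts in arterial, venous and lymphatic vessel formation. TAL1 works with LMO2, GATA factors and E proteins in blood and endothelial precursors. KLF2 and KLF4 are induced by laminar blood flow through the kinase ERK5 and MEF2 factors, and they raise vessel-protective genes such as Nos3, Thbd and S1pr1.

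Start-site sequences are shown for Erg, Klf2 and Klf4, the members that fell with diosmin and have an entry in the RefSeq promoter table (GRCm38.p6), to let their upstream DNA be compared. The table matched 5 of the 10 members (Erg, Ets2, Tal1, Klf2 and Klf4) with 8 windows. Each run below is read 5′ to 3′ on the gene's own strand and stops before the first base of the gene. Capitals mark every match, on either strand, of the motifs searched: CCGGAAG and ACAGGAA for ETS factors, ACAAT for SOX factors, CACCC for Krüppel-like factors, CANNTG for E-box proteins such as TAL1 and its partners, and CTA, any 4 bases, TAG for MEF2.
Erg, chr16:95586594-95586843, minus strand: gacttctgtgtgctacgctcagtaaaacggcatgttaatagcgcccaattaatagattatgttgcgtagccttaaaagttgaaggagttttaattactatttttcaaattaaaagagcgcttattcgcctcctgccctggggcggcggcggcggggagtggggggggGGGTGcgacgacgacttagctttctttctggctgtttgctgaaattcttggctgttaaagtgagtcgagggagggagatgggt
Klf2, chr8:72318812-72319032, plus strand: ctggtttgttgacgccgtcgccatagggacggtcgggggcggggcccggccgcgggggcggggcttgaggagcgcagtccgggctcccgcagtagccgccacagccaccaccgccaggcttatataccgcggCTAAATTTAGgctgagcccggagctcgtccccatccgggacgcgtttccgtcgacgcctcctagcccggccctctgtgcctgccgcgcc
Klf4, chr4:55532476-55532725, minus strand: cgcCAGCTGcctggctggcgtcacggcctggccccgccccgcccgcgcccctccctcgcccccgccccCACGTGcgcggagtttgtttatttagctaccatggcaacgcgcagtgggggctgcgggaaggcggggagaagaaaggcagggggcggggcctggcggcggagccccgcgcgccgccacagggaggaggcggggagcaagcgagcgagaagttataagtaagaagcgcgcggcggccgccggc
The Klf2 run, cut short of 250 bases because annotated Klf2 exon begins there, holds the MEF2 form CTAAATTTAG, which starts 118 bases before the RefSeq start, and 3.20% of the 32851 windows of 250 bases in the table hold such a form. The Erg run holds 1 CACCC, read on the other strand, a motif present in 52.0% of windows. The SOX form ACAAT, held by 27.7% of windows, is in none of the 3 runs. Erg has 2 further RefSeq starts inside the gene, whose windows are not printed, and the third window holds 1 match of the SOX form, 1 of the Krüppel-like form and 2 E-box forms. The Klf4 run holds 2 E-box forms, CAGCTG and CACGTG, and 66.2% of windows hold at least 1. Neither ETS form was found in any of the 8 member windows, against 6.91% (CCGGAAG) and 7.20% (ACAGGAA) of all windows. A match is a string of letters and not a measured binding site.

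With diosmin, 5 of the 10 factors fell and none rose. Those that fell were Sox7, Klf4, Sox18, Klf2 and Erg, with log2 fold changes from -2.17 to -1.28 (edgeR quasi-likelihood test, adjusted p under 0.05 over all 13533 genes). Over all genes tested, 2.96% passed: 1.78% fell (241 genes) and 1.17% rose (159). Scaling by library size alone gave 337 lower (2.49%) and 115 higher (0.85%), with the same 5 members. None of the 10 members was higher at an unadjusted p under 0.05 or by DESeq2 or limma-voom, and 8 were lower at an unadjusted p under 0.05. The share of all genes under that unadjusted p was not counted for any fit. All 10 had a negative log2 fold change, as did 49.5% of all genes tested, and the median was -1.28 for the members and 0.01 for all genes. In 9 of the 10, every member but Sox17, both diosmin libraries lay below both IVS libraries, as they did for 24.1% of all genes tested. Leaving out IVS replicate 1 kept 5 members lower (1.82% of all genes), and leaving out IVS replicate 2 gave 1, Ets1 (0.423%). Leaving out IVS_diosmin replicate 1 gave 0 (0.0766%; 8 members at an unadjusted p under 0.05), and leaving out IVS_diosmin replicate 2 gave 3 (0.885%): Erg, Sox7 and Klf2. In these fits the lone library of a group is assumed to vary like the other group. DESeq2 called 6 members lower (2.56% of all genes lower, 1.97% higher), limma-voom 4 (1.38% and 0.909%), and a test without a low-count filter 8 (2.34% lower). With the replicate number as a block none passed (0.362% of all genes lower; 7 members at an unadjusted p under 0.05).

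Endothelial markers were lower in sum in the same libraries, and none of the 18 was at 0. The sum was 893 and 1012 CPM in the IVS libraries and 573 and 505 CPM with diosmin. CPM is each gene's count relative to its library's TMM-normalised size. In bulk muscle, fewer endothelial cells and less RNA per cell cannot be told apart. The rRNA gene CT010467.1 took 4.14% and 3.80% of gene counts in IVS and 1.16% and 0.936% with diosmin, and the small nuclear RNA Rn7sk stood at 34.6 and 33.5 against 11.9 and 5.97 CPM. Other nuclear RNAs did not pass: Neat1 was higher, at 2583 and 2299 against 4971 and 3210 CPM (log2 fold change 0.74, adjusted p = 0.124; called by DESeq2 at 0.0373), and Malat1 was at -0.31 (0.561). The part of these RNA measures in the falls was not tested.

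**Figure D1:**
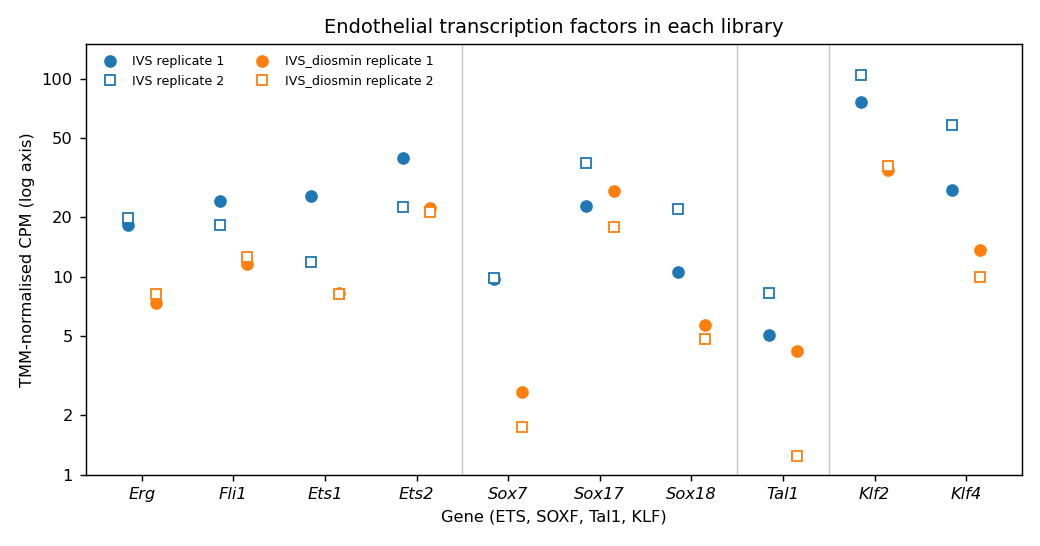
TMM-normalised CPM (log axis) of each of the 10 factors in the 4 libraries, with IVS in blue and IVS_diosmin in orange, filled circles for replicate 1 and open squares for replicate 2, and grey lines between the gene families. Each marker is 1 library. The orange markers lie below both blue markers for every gene but Sox17, with the widest gap at Sox7 and almost none at Ets2.

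Among the ETS factors, Erg fell and the other 3 did not pass. Erg, the ETS factor most restricted to endothelium (mm10 chromosome 16, 95359169 to 95586593, minus strand), stood at 18.2 and 19.7 CPM in IVS and at 7.40 and 8.19 CPM with diosmin. Its groups lay far apart beside the spread within each, and its log2 fold change was -1.28 ± 0.25 (SE, adjusted p = 0.0179). That value stayed between -1.37 and -1.21 when any 1 library was left out, while the adjusted p went to 0.134 without IVS replicate 2 and 0.174 without IVS_diosmin replicate 1.

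Fli1, which endothelium shares with platelet-forming and other blood cells (chromosome 9, 32422204 to 32542861, minus strand), had 24.2 and 18.4 CPM in IVS and 11.6 and 12.6 CPM with diosmin. Its groups did not overlap, yet it missed the threshold (log2 fold change -0.82, 95% interval -1.34 to -0.30, adjusted p = 0.0938). Ets1 (chromosome 9, 32636221 to 32757820, plus strand) had 25.7 CPM in IVS replicate 1, 11.9 CPM in IVS replicate 2 and 8.33 and 8.19 CPM with diosmin. Here the IVS libraries differed from each other by more than replicate 2 differed from either diosmin library. Its log2 fold change of -1.19 (interval -1.93 to -0.45, adjusted p = 0.0923) was -0.52 without IVS replicate 1 and -1.64, past the threshold at 0.0269, without IVS replicate 2. DESeq2 called Ets1 as well.

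Ets2, a growth factor-responsive relative of Ets1 (chromosome 16, 95702075 to 95721051, plus strand), showed the same high IVS library. It stood at 39.7 CPM in IVS replicate 1 and 22.43 CPM in IVS replicate 2, and at 22.36 and 21.17 CPM with diosmin. The groups were separated only by the narrow step from 22.43 to 22.36 CPM, and the log2 fold change of -0.52 (interval -1.09 to 0.05, adjusted p = 0.351) was -0.05 without IVS replicate 1. The 4 genes lie as neighbouring pairs that point away from each other. Fli1 and Ets1 are 93.4 kb apart on chromosome 9, and Erg and Ets2 are 115 kb apart on chromosome 16. Within the first pair Ets1 varied more between IVS libraries than Fli1, and within the second Ets2 varied more than Erg.

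Among the SOXF factors, Sox7 and Sox18 fell and Sox17 did not pass. Sox7 (chromosome 14, 63943673 to 63950732, plus strand) had the largest fold change of the 10 genes. It stood at 9.72 and 9.83 CPM in IVS and at 2.62 and 1.74 CPM with diosmin, from 170, 121, 34 and 25 counts. The IVS libraries were nearly equal, and the log2 fold change was -2.17 ± 0.36 (SE, adjusted p = 0.00946), a level 4.49-fold higher in IVS. The adjusted p was 0.0603 without IVS replicate 2 and 0.0857 without IVS_diosmin replicate 1.

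Sox18, a factor of lymphatic and blood vessel development (chromosome 2, 181669836 to 181671640, minus strand), had 10.6 and 22.1 CPM in IVS and 5.71 and 4.86 CPM with diosmin. IVS replicate 2 held 2.08 times the level of replicate 1, and both stood above the diosmin libraries (log2 fold change -1.62 ± 0.35, adjusted p = 0.0323). The call held only when IVS replicate 1 was the library left out (0.00384), and the adjusted p without each of the others ran from 0.185 to 0.338. Without IVS replicate 2 the log2 fold change was -1.02. The call was also missed by limma-voom (0.0859).

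Sox17, the SOXF factor most tied to arterial endothelium (chromosome 1, 4490931 to 4497354, minus strand), stood at 22.8 and 37.4 CPM in IVS and at 27.0 and 17.8 CPM with diosmin. The groups overlapped, since diosmin replicate 1 exceeded IVS replicate 1 (log2 fold change -0.42, interval -1.04 to 0.19, adjusted p = 0.501). Leaving out IVS replicate 2 moved the value to -0.04, and leaving out IVS_diosmin replicate 2 moved it to -0.17. It was -0.74 or -0.75 when the first library of either group was dropped. Sox17 was the only member whose exons met those of a gene on the other strand: 804 bases are shared with Gm37587, which had 1 count in the 4 libraries together.

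Per kilobase of exon, Sox17 made up 33.5% and 32.0% of the summed SOXF message in the IVS libraries and 56.7% and 51.4% in the diosmin libraries. Sox7 went from 20.6% and 12.2% to 7.97% and 7.26%, and Sox18 from 45.9% and 55.8% to 35.3% and 41.4%. The summed SOXF level was 14.3 and 24.5 FPKM (CPM divided by kilobases of merged exon) in IVS and 9.97 and 7.25 FPKM with diosmin. The ratio of Sox17 to Sox7 was 1.62 and 2.63 in IVS and 7.12 and 7.08 with diosmin. The groups do not overlap in this ratio. A 2-sided exact permutation test over 4 libraries cannot go below p = 0.33, the value it gave.

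**Figure D2:**
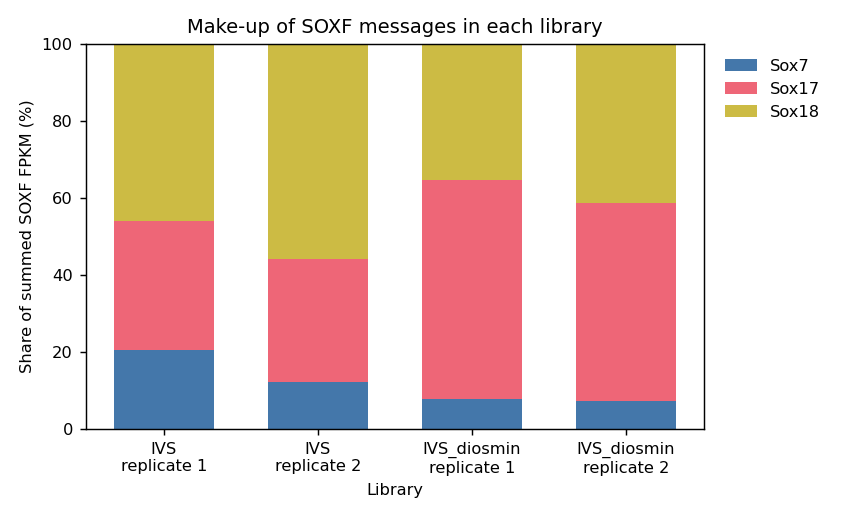
Share of the summed SOXF level (FPKM, in percent) held by Sox7, Sox17 and Sox18 in each of the 4 libraries, as stacked bars that add to 100. Sox17 holds 33.5% and 32.0% in the IVS libraries and 56.7% and 51.4% in the diosmin libraries.

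Tal1, which marks blood and endothelial precursors and the red cell and platelet lineages (chromosome 4, 115056426 to 115071755, plus strand), had 89, 102, 55 and 18 counts, or 5.09 and 8.29 CPM in IVS and 4.24 and 1.25 CPM with diosmin. The groups did not overlap, but the diosmin libraries lay far apart, with replicate 2 at 0.295 times replicate 1. The log2 fold change of -1.29 (interval -2.44 to -0.13) missed the threshold at an adjusted p of 0.241, and leaving out a diosmin library moved it to -2.40 or to -0.66.

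Both Krüppel-like factors fell. Klf2, the flow-induced factor of quiescent endothelium that lymphocytes also express (chromosome 8, 72319033 to 72321656, plus strand), had 76.4 and 104 CPM in IVS and 34.8 and 36.4 CPM with diosmin. Its diosmin libraries agreed closely, and its log2 fold change was -1.34 ± 0.22 (SE, adjusted p = 0.00766), the smallest p of the members. Klf4, which endothelium shares with epithelia and monocytes (chromosome 4, 55527143 to 55532466, minus strand), had 27.3 and 58.6 CPM in IVS and 13.6 and 9.93 CPM with diosmin. IVS replicate 2 held 2.14 times the level of replicate 1, and both exceeded the diosmin libraries (log2 fold change -1.86 ± 0.36, adjusted p = 0.0313). Leaving out IVS replicate 2 or IVS_diosmin replicate 1 took Klf2 above the threshold (adjusted p = 0.0856 and 0.143) and Klf4 too (0.100 and 0.174), and Klf4 was also lost when IVS_diosmin replicate 2 was dropped (0.239).

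**Figure D3:**
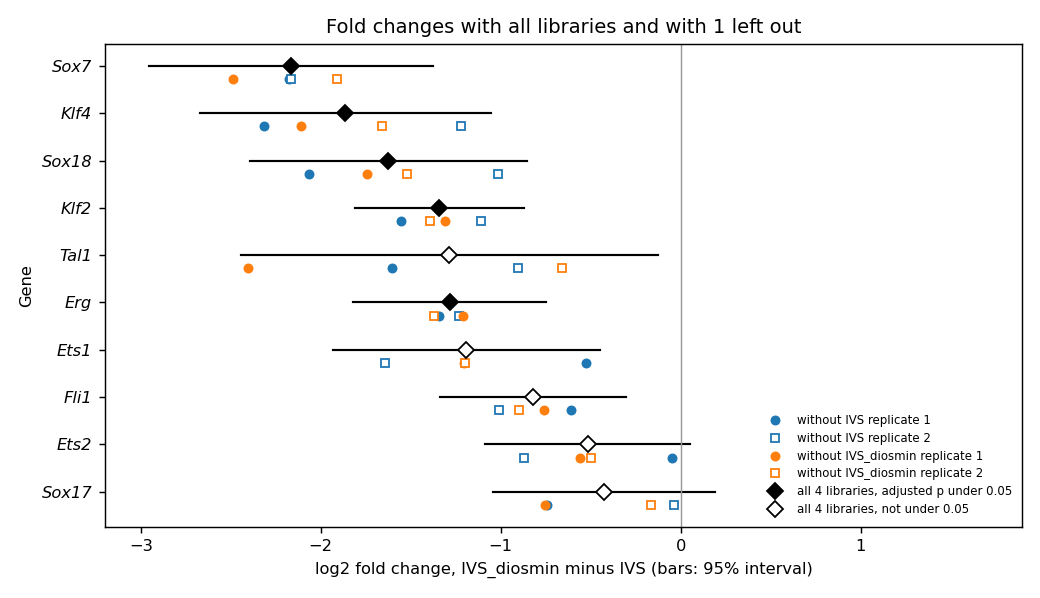
Log2 fold change (IVS_diosmin minus IVS) of the 10 factors. Diamonds with bars are the values from all 4 libraries with their 95% interval, filled where the adjusted p is under 0.05, and the small markers under each are the values with 1 library left out. Every value lies below 0; Erg moves least (-1.37 to -1.21) and Tal1 most (-2.40 to -0.66).

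The 10 factors did not vary together between the IVS libraries. Ets1, Ets2 and Fli1 were higher in replicate 1 (log2 of replicate 2 over replicate 1 of -1.11, -0.82 and -0.40). Klf4, Sox18, Sox17, Tal1 and Klf2 were higher in replicate 2 (1.10, 1.06, 0.71, 0.70 and 0.45). Erg (0.11) and Sox7 (0.02) were nearly level. The log2 fold change of Klf4 was -2.32 without IVS replicate 1 and -1.22 without IVS replicate 2, and that of Ets2 was -0.05 and -0.87.

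By level per kilobase of exon, Klf2 led in both groups, at 48.9 ± 10.6 FPKM in IVS and 19.3 ± 0.6 FPKM with diosmin (SD, n = 2), and its libraries did not overlap with those of the next gene. In IVS it was followed by Klf4 (14.1 ± 7.2 FPKM), Sox18 (10.1 ± 5.0), Sox17 (6.31 ± 2.16), Fli1 (6.10 ± 1.18), Erg (5.48 ± 0.31) and Ets2 (5.37 ± 2.11). From Klf4 to Ets2 each gene overlapped with the next, so that their order is not fixed by these libraries. Sox7 (2.96 ± 0.02 FPKM) came below Ets2 without overlap, and Ets1 (2.21 ± 1.15) and Tal1 (1.53 ± 0.52) closed the order with overlapping ranges. With diosmin, Sox17 (4.69 ± 1.37 FPKM), Klf4 (3.87 ± 0.86) and Ets2 (3.77 ± 0.14) followed Klf2 with overlapping ranges. Then came Fli1 (3.46 ± 0.20), Sox18 (3.26 ± 0.37), Erg (2.25 ± 0.16), Ets1 (0.974 ± 0.011), Sox7 (0.660 ± 0.190) and Tal1 (0.627 ± 0.483), where Fli1 overlapped with Sox18 and Sox7 with Tal1. Sox18 was the third in IVS and the sixth with diosmin, and Sox17 was the fourth in IVS and the second with diosmin.

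Set against the summed endothelial markers of the same library, the mean differences of the factors lay on both sides of 0. Of the 18 markers 8 fell, against 1.78% of all genes tested, and none rose. A negative log2 fold change was seen in 16 of them (49.5% of all genes). At an unadjusted p under 0.05, 14 were lower and 1 was higher. The marker sum had a log2 difference of -0.82. The log2 ratio of a factor's CPM to that sum differed between diosmin and IVS by -1.37 for Sox7, -0.96 for Klf4, -0.72 for Sox18, -0.67 for Tal1, -0.50 for Klf2, -0.46 for Erg and -0.26 for Ets1. It differed by 0.02 for Fli1, 0.37 for Ets2 and 0.41 for Sox17. For Fli1, Ets2, Sox17, Ets1 and Tal1 the libraries of the groups overlapped in this ratio. Sox17, for example, had -5.29 and -4.76 in IVS and -4.41 and -4.83 with diosmin. For Sox7, Klf4, Sox18, Klf2 and Erg both diosmin libraries lay below both IVS libraries. The marker sum includes genes known as ETS targets, and the 6 markers that are not on that target list had a log2 difference of -0.90. The median ratio over the 10 factors differed by -0.41 between groups, and its exact permutation p = 0.33 is the smallest that 4 libraries allow.

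Other members of the 3 families were tested with the same fit. Of 13 tested ETS genes outside the 10, none passed in either direction (2 lower and 0 higher at an unadjusted p under 0.05, 1 lower by DESeq2, 0 by limma-voom), with a median log2 fold change of -0.16. Erf, an ETS repressor, came closest (-1.73, adjusted p = 0.0539), followed by Elk3, an endothelial partner of SRF (-0.99, 0.122), and Etv4 was at 1.25 (0.312). Of 5 other SOX genes none passed (0 at an unadjusted p under 0.05, 0 by DESeq2 and 0 by limma-voom), with Sox6, a factor of fast muscle fibres, at 0.44 (0.431), Sox13 at -0.58 (0.474) and Sox4 at -0.65 (0.654). All 11 other Krüppel-like genes had lower values, with a median of -0.86, and 1 fell. That was Klf6, an early response gene, from 51.8 and 51.4 CPM to 19.6 and 23.2 CPM (log2 fold change -1.27 ± 0.21, adjusted p = 0.00824). Klf3 (-1.46, 0.0609) and Klf7 (-1.13, 0.0897) did not pass.

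Of 20 further endothelial transcription factors, 4 fell and none rose, with a median of -0.64. Epas1, the hypoxia-inducible factor of endothelium, went from 103 and 128 CPM to 59.3 and 60.2 CPM (log2 fold change -0.95 ± 0.20, adjusted p = 0.0284). Meox2 and Tcf15, which act together in muscle capillary endothelium in fatty acid uptake, fell by 1.44 and by 1.12 on the log2 scale, and Bcl6b, an endothelial repressor, fell by 1.40. With 1 library left out, the log2 fold change ran from -1.82 to -0.82 for Bcl6b and from -1.83 to -1.14 for Meox2. It ran from -1.27 to -0.94 for Tcf15 and from -1.11 to -0.79 for Epas1. Limma-voom missed both Bcl6b (0.0758) and Tcf15 (0.0627). With the replicate number as a block, 0 genes of this list passed, and these 4 had adjusted p from 0.101 to 0.175. Among 13 partners and antagonists of TAL1, 2 fell, the inhibitors Id1 (log2 fold change -1.93, adjusted p = 0.0433) and Id3 (-1.19, 0.0282), which bind E proteins and keep them off DNA. Id3 was missed by limma-voom (0.0513), and with the replicate block neither passed (adjusted p = 0.125 for Id1 and 0.095 for Id3). Tcf12, an E protein, was at -0.84 (0.128). No gene of these 2 lists rose by edgeR, DESeq2 or limma-voom, with 1 and 0 higher at an unadjusted p under 0.05.

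Known target genes were tested from lists chosen with earlier results of these data known. Of 20 endothelial genes bound by ETS factors, 5 fell and none rose, with a median of -0.65. Cdh5, the junction cadherin, went from 111 and 104 CPM to 45.0 and 40.1 CPM (log2 fold change -1.34 ± 0.20, adjusted p = 0.00491). The others were Esam, a junction molecule (-1.15), Flt1 and Kdr, receptors for VEGF (-0.96 and -1.20), and Dll4, a Notch ligand (-1.26). With 1 library left out, the log2 fold change of Kdr ran from -1.54 to -0.74. That of Flt1 ran from -1.04 to -0.89, and that of Dll4 from -1.39 to -1.12. Kdr was missed by limma-voom (0.0531). With the replicate number as a block, Cdh5 alone of this list passed (adjusted p = 0.0452). Esam, Flt1, Dll4 and Kdr then had adjusted p from 0.0779 to 0.114. Of 8 tested SOXF targets, 2 fell, which were again Cdh5 and Dll4, and Notch1 did not pass (-0.82, adjusted p = 0.100).

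Among 15 tested targets of KLF2 and KLF4, which include both factors, 4 fell and none rose. Apart from the factors these were S1pr1, the endothelial sphingosine 1-phosphate receptor, from 94.3 and 104 CPM to 32.3 and 30.0 CPM (log2 fold change -1.67 ± 0.20, adjusted p = 0.00245), and Aqp1, a water channel of capillaries, which fell by 1.93. Of 15 genes that act upstream of KLF2 and KLF4, 3 fell: Heg1, a junctional receptor of the CCM complex (-1.36, adjusted p = 0.00977), and Pecam1 and Kdr of the flow-sensing junction complex (-1.04 and -1.20). The median of that list was -0.03, none rose, and 3 had higher values at an unadjusted p under 0.05. Of 22 tested immediate early genes, the class of rapidly induced genes to which Klf2, Klf4 and Ets2 are akin, 5 fell and none rose, with a median of -0.80. They were Dusp1 (-1.33), Klf6, Zfp36 (-1.77), Ier2 (-1.63) and Junb (-1.82). With 1 library left out, the log2 fold change ran from -2.29 to -1.11 for Junb and from -2.19 to -1.18 for Zfp36. Junb was missed by limma-voom (0.0556). With the replicate number as a block, Dusp1 alone of this list passed (adjusted p = 0.0489). Klf6, Ier2, Zfp36 and Junb then had adjusted p from 0.0627 to 0.120. None of the genes in these 5 lists rose at adjusted p under 0.05 by DESeq2 or limma-voom either.

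The lists share genes. Against 2.96% of all genes tested, 20 of the 124 distinct list genes tested outside the 10 factors passed. That count was 16 without IVS replicate 1, 8 without IVS replicate 2, 0 without IVS_diosmin replicate 1 (where 44 passed at an unadjusted p under 0.05) and 12 without IVS_diosmin replicate 2.

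**Figure D4:**
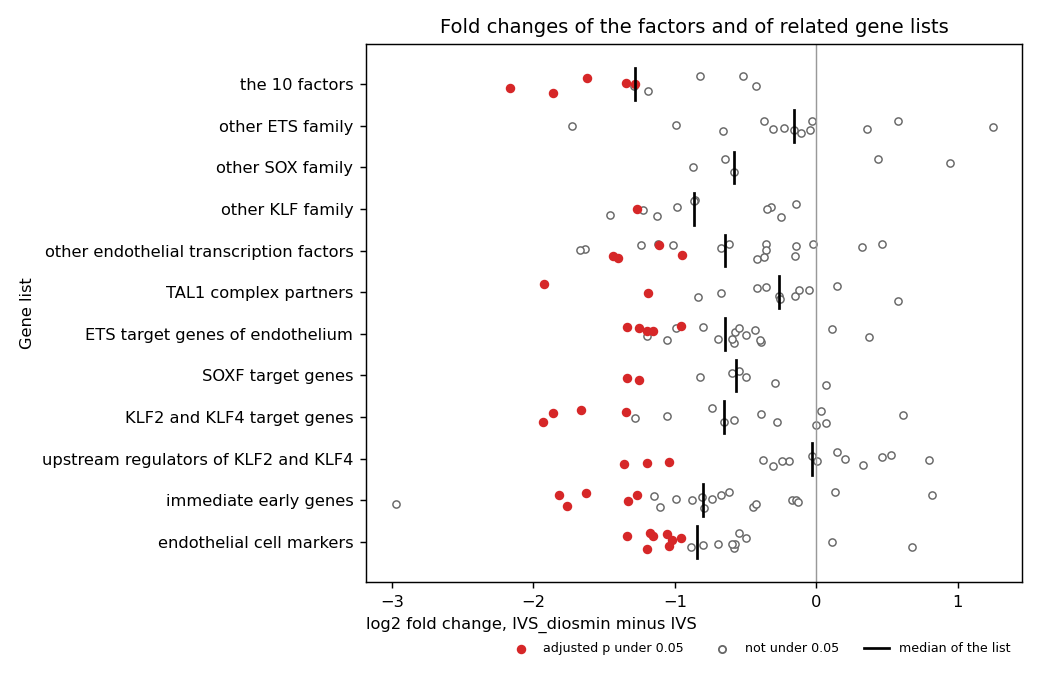
Log2 fold change (IVS_diosmin minus IVS) of the 10 factors and of each tested gene in the related lists, with red points for an adjusted p under 0.05, open points for the rest and a black bar at each list's median. Medians run from -1.28 for the 10 factors to -0.03 for upstream regulators of KLF2 and KLF4; vertical scatter within a list only separates points.

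Several of the 10 are also made outside endothelium, so markers of other cells were read in the same libraries. Markers of macrophages and monocytes summed to 29.7 and 60.7 CPM in IVS and 32.0 and 53.3 CPM with diosmin over 11 genes, of which 9 were tested and none passed (0 at an unadjusted p under 0.05, 0 by DESeq2 and 0 by limma-voom). Lymphocyte markers summed to 2.23 and 2.60 CPM in IVS and 5.40 and 6.80 CPM with diosmin, platelet markers to 1.37 and 3.90 against 2.24 and 5.48 CPM, and all 6 neutrophil markers were at 0 counts in every library. Of the 11 genes in the lymphocyte sum only 2 had enough counts to be tested. Cd28, which is part of that sum, rose by edgeR, from 2 and 4 counts to 22 and 60 (adjusted p = 0.0307). Neither tested gene passed by DESeq2 (0) or limma-voom (0). Markers of erythroid cells, a lineage that makes Tal1, summed to 3.95 and 18.04 CPM in IVS and 19.6 and 35.9 CPM with diosmin. Of 4 tested none passed (3 higher at an unadjusted p under 0.05, 1 by DESeq2, 0 by limma-voom). Smooth muscle and pericyte markers summed to 296 and 274 CPM in IVS and 305 and 288 CPM with diosmin, and none of 10 tested passed (2 higher at an unadjusted p under 0.05, 0 by DESeq2 and 0 by limma-voom). Lymphatic endothelial markers summed to 8.98 and 11.7 CPM in IVS and 11.5 and 5.90 CPM with diosmin. Schwann cell markers summed to 31.7 and 177 CPM in IVS and 49.6 and 89.1 CPM with diosmin. Fibro-adipogenic markers summed to 137 and 248 CPM in IVS and 215 and 176 CPM with diosmin. None of the 3, 5 and 8 genes tested in these lists passed (1 fibro-adipogenic gene was higher by DESeq2). Skeletal muscle fibre markers summed to 98525 and 110342 CPM in IVS and 97940 and 101608 CPM with diosmin. Of 8 tested, 1 rose by edgeR, against 1.17% of all genes tested, and 0 fell. Limma-voom called 1 higher, and DESeq2 called 1 higher and 1 lower. The part of these cells in the members' values was not tested.

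By centred log2 CPM over the 4 libraries, the genes nearest in pattern to Erg were Slc1a1 (distance 0.0561), Rbm12 (0.0695) and Tmem185b (0.0902). For Klf2 they were Slc7a1 (0.0515), Pcdh12 (0.0598) and Hsp90b1 (0.0848), for Sox7 Chrnd (0.203), Myadm (0.265) and Htra4 (0.267), for Sox18 Rgcc (0.0960), Olfr1372-ps1 (0.160) and Zfp36 (0.163), and for Klf4 Id1 (0.155), Mall (0.171) and Pxdc1 (0.173). Fli1 was nearest to Gm7887 (0.0809), Ephb4 (0.0904) and Tmem170 (0.0932), Ets1 to Gm15441 (0.194), Sept10 (0.209) and Ctdspl2 (0.213), and Ets2 to Star (0.0398), Ermp1 (0.0437) and Ccsap (0.0795). Sox17 was nearest to Tmed10-ps (0.0757), Osmr (0.0980) and Plekhg2 (0.111), and Tal1 to Tnfrsf22 (0.0867), Vasn (0.152) and Gimap9 (0.163). With so few points, 4 libraries allow many unrelated genes to lie this close.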

How the data were processed

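Poly(A) RNA-seq counts from 2 IVS and 2 IVS_diosmin muscle libraries were used. The deposited values are raw counts per gene, 1 file per library, in HTSeq's layout. The notes of the submitters on processing list HISAT2 2.1.0, HTSeq and the build mm10. The annotation release, strand setting and filters are not given in the sources used here, and the library kit is not described as keeping strand. Gene counts summed to 13056650 to 15324354 per library. The 5 HTSeq summary lines (72.3% to 75.1% of reads) were left out. Of these, alignments that were not unique made up 37.7% and 38.8% in IVS and 45.6% and 43.6% with diosmin. Reads that HTSeq gave to no counted feature made up 29.7% and 28.6% in IVS and 25.8% and 26.8% with diosmin. Reads not aligned made up 2.75% and 2.89% in IVS and 1.50% and 1.42% with diosmin. The part of these differences in the falls was not tested.

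Symbols, positions and merged exon lengths came from GENCODE M21, which matched 55141 of 55401 identifiers. Genes sharing a symbol gave it to the one with the higher mean count, and Cyr61 is listed as Ccn1. edgeR 4.0.16 (R 4.3.3) ran filterByExpr, TMM and a robust quasi-likelihood test of IVS_diosmin minus IVS, with Benjamini-Hochberg adjustment over 13533 genes and a threshold of 0.05. Adjusted p-values come from this test unless another tool is named, and the standard error is the fold change over the square root of F. The fit was also run on simulated counts drawn with the same spread setting for every gene. That run cannot test the effect of differences in spread between genes. Replicates differed beyond sampling noise (chi-square over degrees of freedom 28.6 and 19.7). DESeq2 1.42.0, limma 3.58.1, other scalings and filters, a replicate block and each library left out were alternatives.

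The members and gene lists were chosen with earlier results of these data known. All 10 members are named, as are Cdh5, Pecam1 and Kdr. Each list gives its genes past the threshold, up to 6 by smallest p, and otherwise its genes of smallest p until 3 are named. Likeness is the Euclidean distance of centred log2 CPM, with a prior count of 2. Promoter windows of 250 bases are from RefSeq, and protein sequences were not used here.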

Additional observations from a re-analysis of the deposited data

How the results depend on the processing

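All 10 factors kept a negative log2 fold change in each of the 12 alternative fits. Scaling by library size alone moved the median of all genes from 0.01 to -0.11, and that of the factors from -1.28 to -1.39, with 5 factors called as before. Without a filter on low counts 8 factors passed, with 919 of all genes and 32 of the list genes, and DESeq2 called 613 genes. With the replicate number as a block, 0 factors passed (7 at an unadjusted p under 0.05; smallest adjusted p 0.0508), with 93 of all genes and 4 of the list genes. The numbers are not known to pair libraries, and deviations of same-numbered libraries had a correlation of 0.01. Leaving out 1 library gave 0 to 5 factors, 38 to 366 genes and 0 to 16 list genes, and a median difference relative to endothelial markers of -0.59 to -0.24. Of the other genes named, Sox13 ran from -1.03 without IVS replicate 1 to 0.022 without IVS replicate 2. The cause of these changes was not tested. Tal1, at 18 to 102 counts a library, and Sox7, at 25 to 170, have the least depth.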
